A study of Homo sapiens with 38 samples.

Results

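BE2C is an established human neuroblastoma cell line with amplified MYCN, and its library transfected with the siRNA labelled siKDM6B_N33 (here N33) was compared with the BE2C libraries transfected with siKDM6B_N1 (N1) and siKDM6B_N2 (N2), the other siRNAs aimed at the same gene, KDM6B. The comparison uses 6 of the 38 deposited samples, chosen by their labels. N33 has 2 samples, which are read files summed to 1 library, and N1 and N2 have 4 samples summed to 2 libraries. A further 4 samples, summed to the 2 libraries siCtrl 1 and siCtrl 2, come from BE2C cells given a non-targeting siRNA, and they show which of the compared libraries departed from the control. All of these cells were cultured in RPMI medium with serum and kept for 72 h with the siRNA. The labels name no other agent or genetic change in any of these groups. Total RNA was sequenced and read pairs were counted per gene. Because N33 is 1 library, the siRNA, the transfection and the library cannot be told apart, and most of what follows is description.

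KDM6B encodes a demethylase that removes methyl groups from lysine 27 of histone H3, a mark laid down by the PRC2 complex. Neuroblastoma arises from sympathoadrenal progenitors, and its cells usually keep a noradrenergic program of transcription factors such as HAND2 and GATA3 together with the enzymes and vesicle proteins that make and store catecholamines. MYCN, a relative of MYC, drives growth and cell-cycle genes in tumours in which it is amplified. An siRNA guides cleavage of the messenger RNA it matches and can also repress other messages that pair with its seed.

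The data of the 5 siRNA libraries were as follows. Each held between 41227956 and 50776662 counts on genes, and N33 held 43914742. Before scaling, 3 counts correspond to at most 0.0728 reads per megaread of a library's total. Levels throughout are in CPM, the reads of a gene per megaread of its library after TMM scaling. Of 50652 genes in the files, 18841 had enough counts to be tested. The SD over genes of the difference in log2(CPM + 1) was 0.137 between both siCtrl libraries, 0.533 between N1 and N2, and 0.694 to 0.713 between N33 and each of the other 4 libraries. Read pairs that mapped to several places were 4.06% of all in N33 and 5.77% to 6.64% elsewhere, while pairs outside annotated genes were 13.0% in N33, 12.5% and 12.7% in siCtrl, and 16.8% and 16.1% with N1 and N2. The cells looked like neuroblastoma by the marker list in every library: all 10 markers were above 1 CPM, with summed levels of 2094 CPM with N33, 4360 and 3639 with N1 and N2, and 3937 and 4026 in siCtrl. Of the Schwann cell markers, SOX10 and FOXD3 had 0 counts in all 5 libraries, and the summed level of that list lay between 17.1 and 38.4 CPM. Epithelial markers summed to 2.42 to 5.35 CPM, blood and endothelial markers to 0.590 to 1.29 CPM, and muscle and liver markers to 0.172 to 0.446 CPM. Fibroblast markers summed to 338 to 492 CPM, most of it from THY1, DCN, LUM and PDGFRB in libraries in which COL1A1 stayed below 1 CPM, and with 435 CPM N33 lay within the range of the others.

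KDM6B itself (chromosome 17 of GRCh37, 7737535 to 7758114) did not set N33 apart. Its level was 8.23 CPM with N33, against 8.92 and 7.12 with N1 and N2 and 6.49 and 8.804 in siCtrl, so N33 lay between N1 and N2 and a lower level of the targeted message was not detected in any of the 3 libraries that carry its name. KDM6A, the X-linked paralog with the same activity, was at 43.5 CPM with N33, whereas N1 and N2 gave 50.8 and 55.4 and siCtrl 39.5 and 38.5, so N33 lay between siCtrl and the other KDM6B siRNAs. N1, N2 and N33 therefore stand for libraries labelled so, and not for cells shown here to hold less KDM6B message.

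N33 stood apart from N1 and N2 in many genes. Taking a difference of at least 2-fold from both N1 and N2 as the rule, 1261 genes were higher with N33 (6.69% of those tested) and 2142 were lower (11.4%). Counts for each gene list below are to be read against these shares. Against all 4 other siRNA libraries 834 genes were at least 2-fold higher (4.43%) and 1632 at least 2-fold lower (8.66%). The same rule applied to each other library in turn gave smaller counts: 307 genes in both directions for siCtrl 1 (1.63%), 249 for siCtrl 2 (1.32%), 925 for N1 (4.91%) and 691 for N2 (3.67%). N33 had 2466 such genes. Each siCtrl library has its own replicate among the 4 others, which holds its count down by design. N1, N2 and N33 have no such partner, so only the counts of N1 and N2 are like comparisons for N33. The excess of lower genes was not particular to N33: siCtrl 1 had 39 higher and 268 lower, siCtrl 2 had 36 and 213, N2 had 186 and 505, and N1 had 470 and 455. Of the 834 higher genes, 236 passed the expression filter through N33 alone and so had to differ, and of the 1632 lower genes, 662 had N33 under the filter's level of 0.228 CPM. Among the 2252 genes with a mean of at least 100 CPM, 161 were lower (7.15%) and 17 higher (0.755%), whereas among the 3981 genes between 1 and 10 CPM the shares were 10.1% and 5.65%.

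**Figure D1:**
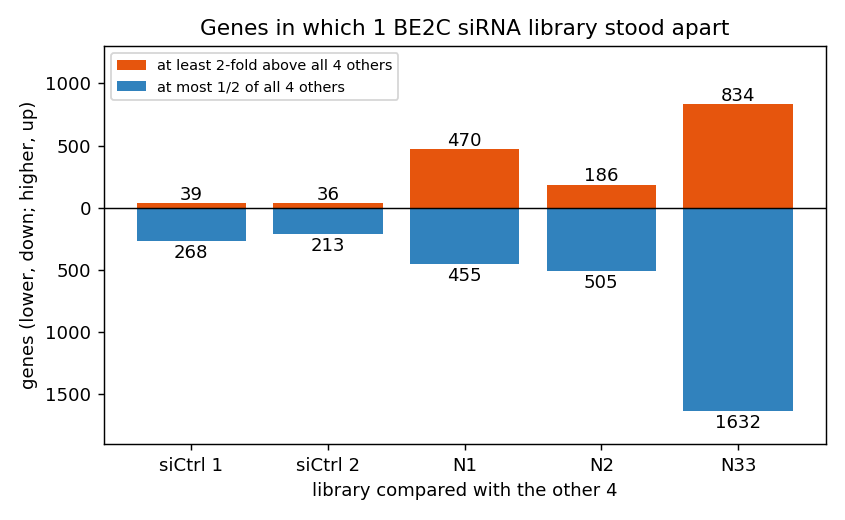
Number of genes (vertical axis) in which each of the 5 BE2C siRNA libraries (horizontal axis) was at least 2-fold above (orange, upward) or below (blue, downward) all 4 others. N33 has 834 and 1632 such genes, more than N1, N2 or either siCtrl library. Each siCtrl library has its own replicate among the 4 others, so its bars are low by design.

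A fit over all 5 libraries with edgeR's quasi-likelihood test, in which N33 was assumed to vary like the other groups, put 716 genes at an adjusted p under 0.05 (Benjamini-Hochberg), 241 higher (1.28%) and 475 lower (2.52%). The smallest edgeR adjusted p was 0.0387, 4990 genes had an unadjusted p under 0.05, and 715 of the 716 were also past 2-fold of both N1 and N2. With library totals in place of TMM the split was 325 higher and 403 lower. These calls rest on the 2 degrees of freedom that the pairs of siCtrl and of N1 and N2 leave: without siCtrl 1, without siCtrl 2, or with N33, N1 and N2 alone, edgeR called 0 genes, with 2749, 2774 and 2739 at an unadjusted p under 0.05, and without N1 or without N2 it called 10537 and 10958. With each file as a sample and the file number as a block edgeR called 3478 higher and 3841 lower, but files of 1 library are not separate cultures. An adjusted p quoted for a gene therefore describes 1 fit, and the levels in all 5 libraries are given beside it.

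The named genes farthest from N1 and N2 (a mean of at least 1 CPM and past 2-fold of all 4 other libraries) included 12 at each end. At the low end were WNT6, a secreted Wnt ligand, ODAM, CRB2, a cell polarity protein, SMTNL2, VSTM2L, BOK, a pro-apoptotic BCL2 relative, ACVRL1, a receptor of the TGF-beta family, C10orf10, S100A4, a calcium-binding protein, CACNG4, a calcium channel subunit, GATA5 and DSC3, a desmosomal cadherin. CRB2 was at 0.855 CPM with N33, 18 and 65.6 with N1 and N2, and 25.9 and 29.9 in siCtrl. CACNG4 was at 0.641 CPM with N33, against 9.29 and 29.4 with N1 and N2 and 25.1 and 30.8 in siCtrl. S100A4 was at 0.299 CPM with N33, whereas N1 and N2 gave 11.6 and 7.005 and siCtrl 4.52 and 4.81 (log2 difference -4.94, standard error 0.53, edgeR adjusted p = 0.0387). In these genes N33 lay below every other library by far more than N1 and N2 differed from each other. WNT6 had 3 counts in N33 against 308 with N1 and 102 with N2, a ratio of 68.4 (95% interval 23.3 to 333 from counting error). BOK had 2 counts in N33 against 53 and 118, a ratio of 42.8 (95% interval 11.7 to 356 from counting error), and ODAM had 1 count against 68 and 81.

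At the high end were SMIM14, TRMT2B, a tRNA methyltransferase, ADM2, SLC7A11, the cystine importer, FUCA1, a lysosomal fucosidase, ETNK2, HDAC11, a histone deacetylase, POU4F1, a transcription factor of sensory neurons, RAB3IP, NEK10, NAP1L2 and KCNMB4, a potassium channel subunit. SMIM14 was at 64.3 CPM with N33, 5.45 and 3.48 with N1 and N2, and 25.4 and 22.2 in siCtrl (log2 difference 3.85, standard error 0.31, edgeR adjusted p = 0.0387). HDAC11 was at 7.91 CPM with N33, against 0.6102 and 1.04 with N1 and N2 and 1.67 and 1.503 in siCtrl. KCNMB4 was at 9.53 CPM with N33, whereas N1 and N2 gave 1.197 and 1.299 and siCtrl 1.398 and 1.31. POU4F1 was at 4.28 CPM with N33, 0.634 and 0.295 with N1 and N2, and 0.424 and 0.558 in siCtrl. ULBP2, a ligand of the NKG2D receptor of killer lymphocytes, is outside the naming rule because its symbol ends like that of a pseudogene, and was added after its values were seen: it was at 6.84 CPM with N33, against 0.329 and 0.0984 with N1 and N2 and 0.424 and 0.301 in siCtrl, with 172 and 148 counts in the N33 files. No gene was at 3 counts or fewer in N33 with at least 5 CPM in all the others, and none showed the reverse.

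MYCN was among the most abundant genes that stood apart. MYCN (chromosome 2 of GRCh37, 16080672 to 16087129) was at 464 CPM with N33, whereas N1 and N2 gave 1728 and 1739 and siCtrl 1602 and 1621, with 10899 and 10809 counts in the N33 files. Both N1 and N2 were slightly above siCtrl, whereas N33 was below all 4, by a log2 difference of -1.90 from N1 and N2 (standard error 0.17, edgeR adjusted p = 0.0387). Of its neighbours on chromosome 2, the noncoding genes MYCNOS and GACAT3 were also lower. MYCNOS, the transcript opposite MYCN, was at 10.9 CPM with N33, 22.7 and 30.97 with N1 and N2, and 28.7 and 26.3 in siCtrl, and because the counting is not stated to use strand its reads cannot be told apart from those of MYCN where they overlap. GACAT3, a long noncoding RNA gene downstream of MYCN (16154050 to 16227323), was at 1.796 CPM with N33, against 25.1 and 22.4 with N1 and N2 and 17.8 and 17.2 in siCtrl (log2 difference -3.72, standard error 0.27, edgeR adjusted p = 0.0387). DDX1 and NBAS, genes that often lie on the same amplicon, did not pass the 2-fold rule. DDX1 was at 455 CPM with N33, whereas N1 and N2 gave 282 and 395 and siCtrl 464 and 441. NBAS was at 182 CPM with N33, 138 and 193 with N1 and N2, and 157 and 155 in siCtrl. Of the 13 tested members of the list of MYCN and its 2p neighbours, 4 were lower (30.8%) and 0 higher. The 4 were MYCN, MYCNOS, GACAT3 and ALK, and the share over all genes was 11.4%. In the network of MAX partners 2 of 11 were lower (18.2%, against 11.4% of all genes). MXD3 was at 2.33 CPM with N33, against 6.74 and 7.62 with N1 and N2 and 14.3 and 14 in siCtrl. MLX was at 36.7 CPM with N33, whereas N1 and N2 gave 84.02 and 81.1 and siCtrl 74.1 and 75.03, and MYC lay between 0.236 and 0.385 CPM in every library. By chromosome, the median log2 difference between N33 and the other KDM6B siRNAs lay between -0.10 and 0.156.

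**Figure D2:**
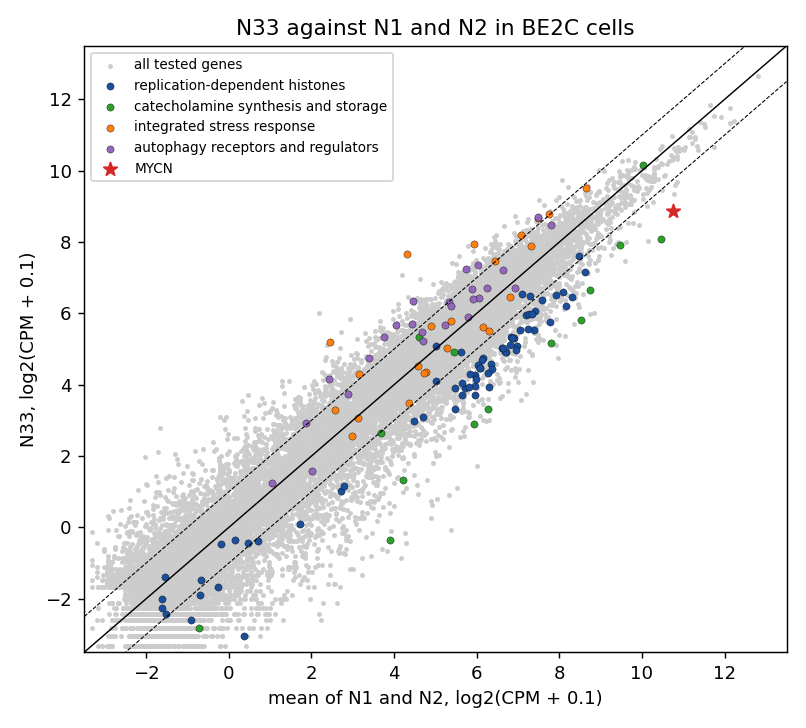
Level with N33 (vertical) against the mean level of N1 and N2 (horizontal), both as log2(CPM + 0.1), for 18841 genes; the solid line marks equal levels and the dashed lines a 2-fold difference. By the rule against both N1 and N2, MYCN (star), 53 of 68 histone genes and 10 of 14 catecholamine genes were lower. By the same rule 4 of 23 stress-response genes and 8 of 26 autophagy genes, the latter a list added after the data were seen, were higher. The dashed lines are set from the mean of N1 and N2, so further members, such as CHGB, lie outside them.

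Genes of catecholamine synthesis and storage were lower with N33. Of 14 tested members 10 were lower (71.4%, against 11.4% of all genes) and 0 were higher, with a median log2 difference of -2.51 against -0.05 over all genes. In bulk RNA, here and in the lists that follow, fewer cells of a kind and less of a message in each cell cannot be told apart. All 10 were also at least 2-fold below both siCtrl libraries. The enzymes TH, DDC and DBH were among the lower genes. TH, the rate-limiting enzyme, was at 2.42 CPM with N33, 30.6 and 6.26 with N1 and N2, and 11.5 and 10.7 in siCtrl. DDC was at 35.8 CPM with N33, against 322 and 126 with N1 and N2 and 177 and 171 in siCtrl. DBH, which makes noradrenaline, was at 9.83 CPM with N33, whereas N1 and N2 gave 123 and 31.5 and siCtrl 50.8 and 59.4. N1 was above siCtrl and N2 below it for these 3 genes, and N33 was below all 4 libraries. SLC18A2, the vesicular monoamine transporter, was at 0.684 CPM with N33, 6.501 and 23.4 with N1 and N2, and 17.2 and 16.4 in siCtrl. Its relative SLC18A1 was at 7.33 CPM with N33, against 86.2 and 35.6 with N1 and N2 and 49.04 and 50.05 in siCtrl. SLC6A2, which takes noradrenaline back up, was at 100.4 CPM with N33, whereas N1 and N2 gave 323 and 529 and siCtrl 306 and 315. CHGA, the vesicle protein chromogranin A, was at 271 CPM with N33, 1568 and 1239 with N1 and N2, and 1204 and 1268 in siCtrl (log2 difference -2.37, standard error 0.23, edgeR adjusted p = 0.0387). CYB561, the cytochrome that keeps ascorbate reduced in the vesicle, was at 55.7 CPM with N33, against 423 and 317 with N1 and N2 and 375 and 380.2 in siCtrl (edgeR adjusted p = 0.0387). These 2 were the members that passed the edgeR threshold. SCG2 and GCH1 were not lower. SCG2, a secretory granule protein, was at 1154 CPM with N33, whereas N1 and N2 gave 1344 and 736 and siCtrl 1069 and 1020. GCH1, which makes the cofactor of TH, was at 40.7 CPM with N33, 25.9 and 22.6 with N1 and N2, and 30.3 and 27.1 in siCtrl.

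Promoter stretches are given for groups with several members past the rule, each with an element long known in such promoters. They are from RefSeq (GRCh38.p14, 250 bases before to 50 after the start), matched by symbol or synonym for 11669 of the 18841 tested genes. Each stretch has 30 bases, 5′ to 3′ along the gene, and capitals mark the element, searched on both strands. None of the 8 stretches printed held another of the 4 elements. For CHGA and SLC18A2 the element is TGACGTCA, read by cyclic AMP-responsive factors.
CHGA, chr14:92923085-92923114 (+ strand): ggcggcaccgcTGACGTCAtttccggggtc
SLC18A2, chr10:117241055-117241084 (+ strand): ccctccggccgTGACGTCAgagccggacgg
These were the 2 of 8 matched catecholamine promoters that held it (25%), against 3.29% of the promoters of all tested genes. Among genes past 2-fold of all 4 other libraries it was in 3.24% of the 926 matched lower genes and 2.13% of the 516 matched higher genes. A match describes letters and is not evidence of binding.

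The transcription factors of the noradrenergic state were lower by less. Of 23 tested, 7 were lower (30.4%) and 0 higher, with a median of -0.94, and 21 of 23 were below both N1 and N2. KLF13 was at 39.8 CPM with N33, against 159.7 and 204 with N1 and N2 and 138 and 142 in siCtrl (edgeR adjusted p = 0.0396). KLF7 was at 31.5 CPM with N33, whereas N1 and N2 gave 108 and 99.7 and siCtrl 83.5 and 93.1. ZNF536 was at 24.2 CPM with N33, 59.8 and 65.7 with N1 and N2, and 58.6 and 60.2 in siCtrl. For these 3 factors N1 and N2 lay near or above siCtrl and N33 below all 4 others. HAND1, a relative of HAND2, was at 39.9 CPM with N33, against 89.2 and 145 with N1 and N2 and 108 and 123 in siCtrl. GATA2 was at 181 CPM with N33, whereas N1 and N2 gave 619 and 364 and siCtrl 493 and 534, with N1 and N2 on either side of siCtrl. PHOX2A, another factor of the program, did not pass the rule, at 91.8 CPM with N33, 105 and 102 with N1 and N2, and 156 and 169 in siCtrl. In PHOX2A both N1 and N2 were below siCtrl as well. GATA3 was at 52.7 CPM with N33, against 75.1 and 82.6 with N1 and N2 and 51.4 and 70.9 in siCtrl. SOX11 was at 175 CPM with N33, whereas N1 and N2 gave 133 and 83.9 and siCtrl 147 and 158, above the others. Mesenchymal state genes, the counterpart program in neuroblastoma, were also lower in part: 10 of 26 (38.5%) were lower and 2 higher (7.69%, near the 6.69% of all genes). CDH11, a cadherin, was at 8.59 CPM with N33, 69.7 and 66.5 with N1 and N2, and 44.9 and 42.7 in siCtrl (log2 difference -2.99, standard error 0.21, edgeR adjusted p = 0.0387). JUN, an AP-1 subunit, was at 15.1 CPM with N33, against 43.8 and 54.1 with N1 and N2 and 40.5 and 42.5 in siCtrl. SNAI2, a repressor of epithelial genes, was at 2.82 CPM with N33, whereas N1 and N2 gave 8.38 and 13.2 and siCtrl 9.81 and 10.5. In all 3 genes N33 was below every other library. CD44, a hyaluronan receptor, was at 0.534 CPM with N33, 6.95 and 1.67 with N1 and N2, and 2.497 and 2.88 in siCtrl. NOTCH2, a receptor, was higher, at 2.03 CPM with N33, against 0.845 and 0.649 with N1 and N2 and 0.499 and 0.623 in siCtrl. ZEB2 and CDH2 did not pass the rule. ZEB2 was at 72.5 CPM with N33, whereas N1 and N2 gave 72.6 and 70.3 and siCtrl 43.9 and 42.7. CDH2, N-cadherin, was at 412 CPM with N33, 359 and 277 with N1 and N2, and 226 and 222 in siCtrl. Neuronal structure genes gave 3 of 24 lower (12.5%, against 11.4% of all genes) and 1 higher (4.17%, against 6.69%), shares near those of all genes, with a median of -0.50. STMN2, a tubulin-binding protein, was at 1192 CPM with N33, against 1614 and 1184 with N1 and N2 and 1442 and 1368 in siCtrl. MAP2 was at 827 CPM with N33, whereas N1 and N2 gave 624 and 786 and siCtrl 706 and 722. DCX, a microtubule protein of migrating neurons, was at 73 CPM with N33, 378 and 338 with N1 and N2, and 108 and 122 in siCtrl, where N33 was below siCtrl by less than 2-fold and N1 and N2 were above it.

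**Figure D3:**
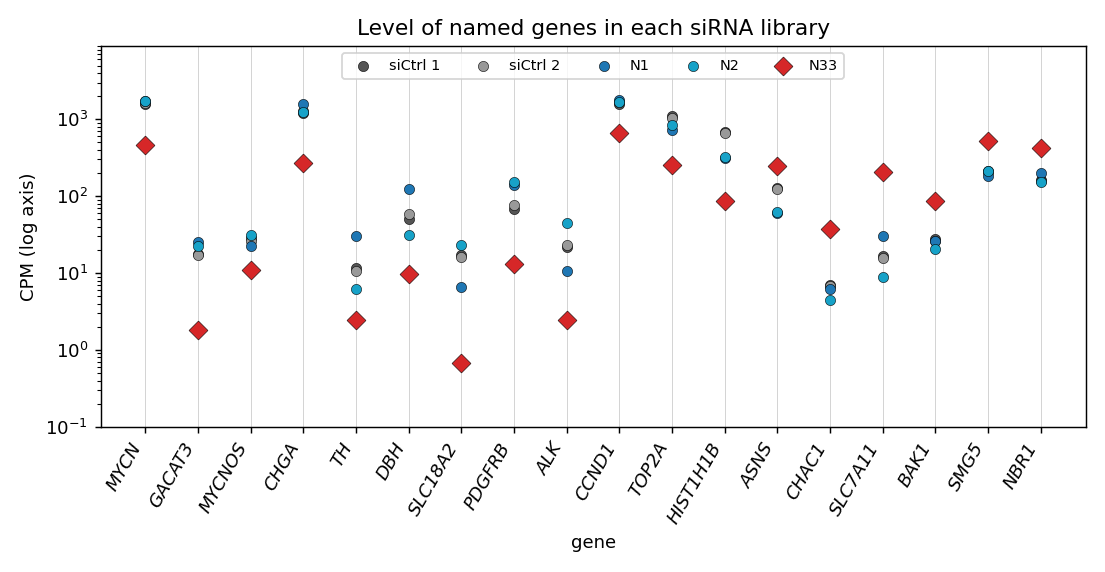
Level in CPM (vertical, log axis) of 18 genes (horizontal) in the 5 libraries, 1 point a library. N33 (red diamonds) lies below the other 4 from MYCN to HIST1H1B and above them from ASNS to NBR1.

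Receptors for growth factors were lower. Of 13 tested neurotrophic and related receptors 9 were lower (69.2%) and 1, GFRA1, was higher at under 1 CPM, with a median of -3.06. PDGFRB was at 13.2 CPM with N33, against 139.5 and 154 with N1 and N2 and 68 and 75.7 in siCtrl (log2 difference -3.47, standard error 0.23, edgeR adjusted p = 0.0387). RET, the receptor of GDNF, was at 179 CPM with N33, whereas N1 and N2 gave 411 and 452 and siCtrl 351 and 379. In PDGFRB both N1 and N2 were above siCtrl and N33 far below it. EGFR was at 30.2 CPM with N33, 137 and 87.8 with N1 and N2, and 72.2 and 77.6 in siCtrl. NGFR, the low-affinity neurotrophin receptor, was at 0.577 CPM with N33, against 8.801 and 1.53 with N1 and N2 and 4.04 and 5.24 in siCtrl. ALK, the receptor mutated in part of neuroblastomas, was at 2.44 CPM with N33, whereas N1 and N2 gave 10.6 and 44.8 and siCtrl 21.9 and 23.1 (edgeR adjusted p = 0.11), where N1 and N2 themselves lay on opposite sides of siCtrl. For 3 of the 9, RET, GFRA3 and PDGFRA, N33 was not past 2-fold of both siCtrl libraries, and RET was past 2-fold of siCtrl 2 but not of siCtrl 1. Those 3 were higher with N1 and N2 than in both siCtrl libraries.

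Genes of retinoic acid uptake and response gave 6 of 9 lower (66.7%, against 11.4% of all genes) and 0 higher, with a median of -1.77. STRA6, which brings retinol into cells, was at 56.8 CPM with N33, 235 and 249 with N1 and N2, and 219 and 247 in siCtrl (log2 difference -2.09, standard error 0.20, edgeR adjusted p = 0.0387). CRABP1, which binds retinoic acid in the cytosol, was at 14.5 CPM with N33, against 33.8 and 39.2 with N1 and N2 and 50.1 and 50.1 in siCtrl. The receptor RARA was at 10.3 CPM with N33, whereas N1 and N2 gave 33.3 and 36.8 and siCtrl 28.1 and 35.8. For STRA6 and RARA the other 4 libraries were close together and N33 was apart, whereas CRABP1 was also lower with N1 and N2 than in siCtrl. Extracellular matrix genes gave 12 of 26 lower (46.2%) and 2 higher (7.69%, near the 6.69% of all genes). VCAN, a proteoglycan, was at 38.4 CPM with N33, 221 and 172 with N1 and N2, and 105 and 109.6 in siCtrl (edgeR adjusted p = 0.0387). COL4A1, a basement membrane collagen, was at 2.65 CPM with N33, against 19.8 and 24.4 with N1 and N2 and 12.4 and 13.7 in siCtrl. COL6A3 was at 0.513 CPM with N33, whereas N1 and N2 gave 7.91 and 5.55 and siCtrl 7.94 and 8.93. All 3 were past 2-fold of the other 4 libraries. SPARC, a collagen-binding protein, was at 54.1 CPM with N33, 126 and 143 with N1 and N2, and 117 and 118 in siCtrl. The small proteoglycans LUM and DCN were higher. LUM was at 109 CPM with N33, against 49.05 and 24.2 with N1 and N2 and 34.1 and 30.04 in siCtrl. DCN was at 93.4 CPM with N33, whereas N1 and N2 gave 45.7 and 38.8 and siCtrl 52.9 and 50.3. COL1A1 and COL11A1 had 0 counts in N33, and the other libraries were below 1 CPM. Surface targets of immunotherapy gave 3 of 13 lower (23.1%, against 11.4% of all genes) and 0 higher. L1CAM, an adhesion molecule, was at 76.7 CPM with N33, 384 and 312 with N1 and N2, and 213 and 255 in siCtrl (edgeR adjusted p = 0.0398). ST8SIA1, the GD3 synthase, was at 11.1 CPM with N33, against 27.3 and 37.5 with N1 and N2 and 33.6 and 32.1 in siCtrl. DLK1 and MEG3, imprinted genes of the same cluster, were lower too. DLK1 was at 104 CPM with N33, whereas N1 and N2 gave 347 and 263 and siCtrl 238 and 279. MEG3 was at 41.9 CPM with N33, 356 and 157 with N1 and N2, and 188 and 214 in siCtrl.

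Replication-dependent histone genes were lower in every class. These genes supply the histones of newly made DNA in S phase and their transcripts normally lack a poly(A) tail. Of 68 tested members 53 were lower (77.9%) and 0 higher, 66 of 68 were below both N1 and N2, 66 of 68 below all 4 other libraries, and the median was -1.59. The edgeR threshold was passed by 42. The counts by class were 4 of 4 for H1, 11 of 15 for H2A, 18 of 22 for H2B, 11 of 14 for H3 and 9 of 13 for H4. HIST1H1B, a linker histone gene, was at 87.6 CPM with N33, against 313 and 323 with N1 and N2 and 682 and 668 in siCtrl (log2 difference -1.86, standard error 0.18, edgeR adjusted p = 0.0387). HIST1H3B was at 74.4 CPM with N33, whereas N1 and N2 gave 269 and 302 and siCtrl 499.6 and 497. HIST1H2BG was at 63.5 CPM with N33, 149 and 159.7 with N1 and N2, and 327 and 313 in siCtrl. N1 and N2 were themselves below siCtrl here, by medians of -0.911 and -0.749 on the log2 scale against -2.35 for N33, and the sum of the list followed the same order, at 2225 CPM with N33, 5918 and 6530 with N1 and N2, and 11310 and 11100 in siCtrl. Near-identical copies make the level of a single histone gene uncertain, and the share of multi-mapped pairs was lowest in N33, at 4.06%. Its part in the result was not tested.

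The octamer ATTTGCAT is a conserved element of H2B promoters, shown for an H2B gene of each of the chromosome 6 and chromosome 1 clusters.
HIST1H2BH, chr6:26251554-26251583 (+ strand): attaagcacctATTTGCATaaaagacctac
HIST2H2BE, chr1:149886710-149886739 (- strand): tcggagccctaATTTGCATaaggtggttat
It was in 66.7% of 12 matched H2B promoters and in 1.47% of those of all tested genes. HIST1H2BK, which did not pass the 2-fold rule, held it as well. Of the matched lower genes 3.46% held it, and of the higher genes 1.36%.

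Cell-cycle genes were lower in part. Of 42 genes of S phase, 11 were lower (26.2%) and 0 higher, and of 54 genes of G2 and mitosis, 23 were lower (42.6%) and 0 higher, with medians of -0.81 and -0.89. MCM4, part of the replicative helicase, was at 125 CPM with N33, against 324 and 295 with N1 and N2 and 419.7 and 441 in siCtrl. FEN1, a flap nuclease, was at 31.02 CPM with N33, whereas N1 and N2 gave 79.6 and 81.8 and siCtrl 120.5 and 122. UHRF1, which maintains DNA methylation, was at 26.6 CPM with N33, 80.01 and 70.7 with N1 and N2, and 127 and 140.4 in siCtrl. All 3 were in the order siCtrl, then N1 and N2, then N33. TOP2A, the topoisomerase that untangles chromosomes, was at 254 CPM with N33, against 719 and 854 with N1 and N2 and 1098 and 1054 in siCtrl (log2 difference -1.63, standard error 0.20, edgeR adjusted p = 0.0398). MKI67, the proliferation antigen Ki-67, was at 33.8 CPM with N33, whereas N1 and N2 gave 146 and 136 and siCtrl 165 and 195. CENPF, a kinetochore protein, was at 257 CPM with N33, 612 and 766 with N1 and N2, and 782 and 775 in siCtrl. Both lists had N1 and N2 below siCtrl too, by medians between -0.456 and -0.607, against -1.38 and -1.47 for N33. Among regulators of G1, CCND1, the cyclin D1 gene, was at 655 CPM with N33, against 1808 and 1694 with N1 and N2 and 1576 and 1659 in siCtrl (log2 difference -1.42, standard error 0.17, edgeR adjusted p = 0.0398). Its relative CCND3 was at 53.6 CPM with N33, whereas N1 and N2 gave 22.04 and 21.8 and siCtrl 35.5 and 36.9 (edgeR adjusted p = 0.0419). The inhibitor genes CDKN2C and CDKN1A were lower as well. CDKN2C was at 8.91 CPM with N33, 30.7 and 25.7 with N1 and N2, and 38.8 and 37.3 in siCtrl. CDKN1A, the p21 gene, was at 0.6199 CPM with N33, against 5.99 and 2.18 with N1 and N2 and 2.597 and 3.03 in siCtrl. CDK4 and CDK6 were within 2-fold of N1 or N2. CDK4 was at 217 CPM with N33, whereas N1 and N2 gave 276 and 311 and siCtrl 333 and 339. CDK6 was at 362 CPM with N33, 411 and 752 with N1 and N2, and 519 and 516 in siCtrl. Of the E2F family, 3 of 10 were lower (30%, against 11.4% of all genes), E2F2 and the repressors E2F7 and E2F8. E2F7 was at 4.404 CPM with N33, against 19.8 and 12.8 with N1 and N2 and 25.2 and 27.1 in siCtrl. E2F8 was at 1.603 CPM with N33, whereas N1 and N2 gave 4.74 and 4.29 and siCtrl 10.2 and 12.9.

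The cell-cycle homology region TTTGAA of genes expressed in G2 and mitosis is shown for MKI67 and for CCNB2, the cyclin B2 gene, which was at 42.3 CPM with N33, 104 and 96.9 with N1 and N2, and 149 and 138 in siCtrl.
CCNB2, chr15:59105105-59105134 (+ strand): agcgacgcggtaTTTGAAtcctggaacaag
MKI67, chr10:128126435-128126464 (- strand): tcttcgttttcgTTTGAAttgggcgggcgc
It was in 68.9% of 45 matched promoters of the G2 and mitosis list and in 10.1% of those of all tested genes. Members of the list that did not pass the 2-fold rule, such as CDC20 and KIF11, held it as well. Of the matched lower genes 14.9% held it, and of the higher genes 12.6%.

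**Figure D4:**
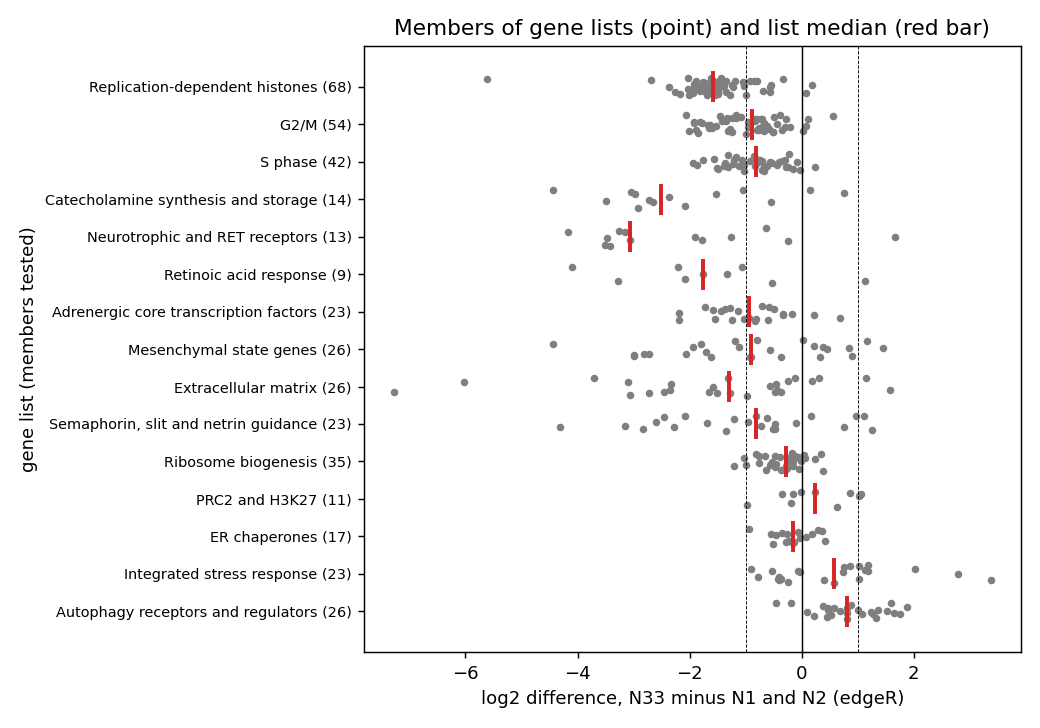
Log2 difference between N33 and the other KDM6B siRNAs from the edgeR fit (horizontal) for each tested member (points) of 15 gene lists (vertical, with the number tested), with the list's median as a red bar and dashed lines at 2-fold. Histone, catecholamine and receptor genes lie mostly left of 0, while autophagy genes, a list added after the data were seen, lie mostly right of it.

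The integrated stress response, in which ATF4 drives genes of amino acid supply when the start of translation is restrained, had members that were higher and none lower: 4 of 23 higher (17.4%, against 6.69% of all genes), with a median of 0.57. CHAC1, a glutathione-degrading enzyme, was at 36.96 CPM with N33, against 6.196 and 4.47 with N1 and N2 and 7.09 and 6.74 in siCtrl (log2 difference 2.79, standard error 0.27, edgeR adjusted p = 0.0387). ASNS, asparagine synthetase, was at 248 CPM with N33, whereas N1 and N2 gave 60.8 and 61.5 and siCtrl 126 and 124 (log2 difference 2.02, standard error 0.16, edgeR adjusted p = 0.0387), and in this gene N1 and N2 were below siCtrl, so that N33 was less than 2-fold above siCtrl 1 and at least 2-fold above siCtrl 2. SLC7A11 was at 204 CPM with N33, 30.5 and 8.99 with N1 and N2, and 16.7 and 15.6 in siCtrl (edgeR adjusted p = 0.0608). PHGDH, the first enzyme of serine synthesis, was at 408 CPM with N33, against 159 and 198 with N1 and N2 and 287 and 316 in siCtrl. The last was less than 2-fold above siCtrl. ATF4 itself was at 726 CPM with N33, whereas N1 and N2 gave 474 and 321 and siCtrl 562 and 539. DDIT3, also known as CHOP, was at 11.03 CPM with N33, 19.9 and 21.4 with N1 and N2, and 27.5 and 24.3 in siCtrl. ATF3 was at 5.86 CPM with N33, against 8.96 and 6.71 with N1 and N2 and 21.1 and 18.98 in siCtrl. Thus ATF4 was above all 4 other libraries without passing the 2-fold rule, whereas DDIT3 and ATF3 were below all 4. ER chaperones gave 0 of 17 in either direction, with a median of -0.15.

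TGATGNAA, the composite element read by ATF4 with its partners, is shown for the stress-response genes that were higher and held it.
ASNS, chr7:97872458-97872487 (- strand): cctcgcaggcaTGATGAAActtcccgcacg
CHAC1, chr15:40953251-40953280 (+ strand): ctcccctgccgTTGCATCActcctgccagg
In CHAC1 it lies on the opposite strand. ATF3 and SLC3A2 of the same list also held it and did not pass the 2-fold rule. The element was in 22.2% of 18 matched promoters of the list and in 1.70% of those of all tested genes. Of the matched higher genes 2.33% held it, and of the lower genes 0.864%.

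Of the BCL2 family of cell death genes, 4 of 14 were lower (28.6%, against 11.4% of all genes). A single member was higher (7.14%, near the 6.69% of all genes). BAK1, a pore-forming member of the BCL2 family, was at 85.8 CPM with N33, whereas N1 and N2 gave 26.1 and 20.7 and siCtrl 27.7 and 25.8 (log2 difference 1.88, standard error 0.22, edgeR adjusted p = 0.0398) and was the 1 higher member of 14. The 4 lower ones were BOK, BCL2 and the BH3-only genes BMF and BBC3. BCL2, the survival factor, was at 25.2 CPM with N33, 64.5 and 98.9 with N1 and N2, and 91.2 and 92.98 in siCtrl. BMF was at 0.791 CPM with N33, against 11.7 and 1.97 with N1 and N2 and 3.396 and 2.81 in siCtrl. BBC3, the PUMA gene, was at 2.35 CPM with N33, whereas N1 and N2 gave 13.8 and 5.06 and siCtrl 5.14 and 5.35. BAX was within 2-fold, at 29.8 CPM with N33, 26.5 and 28.1 with N1 and N2, and 38.03 and 40.05 in siCtrl. BCL2L1 was too, at 36.2 CPM with N33, against 29.2 and 25.4 with N1 and N2 and 28.04 and 28.7 in siCtrl. Among p53 targets 5 of 20 were lower (CDKN1A, BBC3, GDF15, SESN1 and BTG2; 25%, against 11.4% of all genes) and 0 higher, and 2 of the 5, CDKN1A and BBC3, were past 2-fold of all 4 other libraries. In BMF and BBC3 N1 was above the others, and N33 below. BTG2, an antiproliferative gene, was at 9.75 CPM with N33, whereas N1 and N2 gave 37.6 and 30.8 and siCtrl 19 and 16.96. MDM2, which degrades p53, did not pass the rule, at 169.8 CPM with N33, 189 and 91.3 with N1 and N2, and 205 and 202 in siCtrl. Interferon response genes gave 3 of 18 higher (IFIT1, ISG15 and IRF7; 16.7%, against 6.69% of all genes) and 1 lower (5.56%, against 11.4%). IFIT1 was at 4.75 CPM with N33, against 1.62 and 0.807 with N1 and N2 and 1.32 and 1.29 in siCtrl. ISG15 and IRF7 were not past 2-fold of siCtrl. ISG15, a ubiquitin-like protein, was at 3.698 CPM with N33, whereas N1 and N2 gave 0.986 and 0.512 and siCtrl 3.57 and 2.79. IRF7 was at 2.67 CPM with N33, 0.681 and 0.826 with N1 and N2, and 2.15 and 2.17 in siCtrl. In both genes N33 was close to siCtrl, and N1 and N2 were below it. OAS1, a sensor of double-stranded RNA, was at 1.09 CPM with N33, against 7.42 and 10.2 with N1 and N2 and 8.84 and 9.02 in siCtrl.

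Further lists lay below or above the shares over all genes, 11.4% lower and 6.69% higher. Of 35 ribosome biogenesis genes 1 was lower, NCL, nucleolin, at 770.2 CPM with N33, whereas N1 and N2 gave 1980 and 1582 and siCtrl 1763 and 1852 (log2 difference -1.21, standard error 0.21, edgeR adjusted p = 0.0522), and 22 of 35 were below both, with a median of -0.29. PRC2 subunits and partners gave 0 of 11 in either direction, and the RNA interference machinery 0 of 12. Polyamine and nucleotide synthesis gave 4 of 21 lower (19%) and 0 higher. ODC1, which starts polyamine synthesis, was at 420.3 CPM with N33, 814 and 432 with N1 and N2, and 711 and 669.6 in siCtrl. Cholesterol synthesis gave 1 of 22 lower and 0 higher. In the hypoxia and glycolysis list 4 of 22 were lower (18.2%) and 1 was higher (4.55%). Among the lower was SLC2A1, the glucose transporter, at 12.5 CPM with N33, against 46.2 and 57 with N1 and N2 and 43.7 and 47.5 in siCtrl. Immediate early genes gave 3 of 17 lower (17.6%) and oncofetal genes 3 of 8 lower (37.5%, median -1.02), with 0 higher in both lists. HOX genes gave 1 of 13 lower (7.69%).

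Against the mean of the siCtrl libraries, which all 3 comparisons share, the medians over catecholamine genes were 0.353 (N1), -0.405 (N2) and -2.07 (N33). In the same order, retinoic acid genes had 0.0604, -0.356 and -1.79, for neurotrophic receptors 0.875, 0.543 and -1.03, and for the noradrenergic transcription factors 0.00803, 0.144 and -0.754. For the stress response they were -0.173, -0.538 and 0.267. In S phase, G2 and mitosis and histones all 3 siRNAs were below siCtrl, whereas in the lineage lists N33 was below siCtrl and the N1 and N2 medians lay on either side of it or above.

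**Figure D5:**
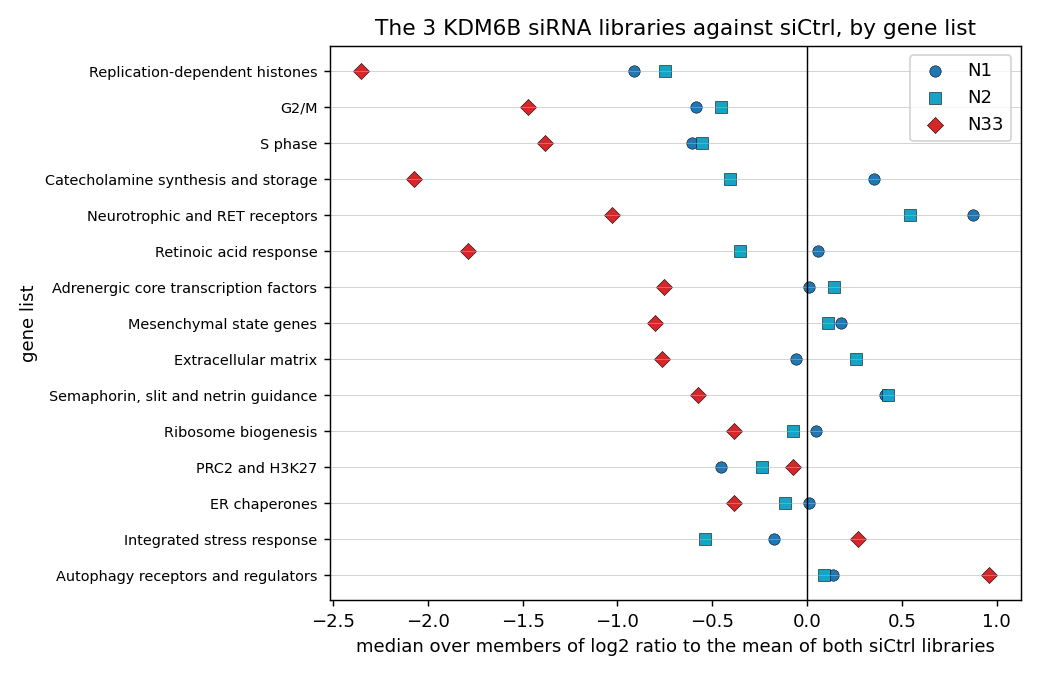
Median over the members of 15 gene lists (vertical) of the log2 ratio to the mean of both siCtrl libraries (horizontal, with 0.1 CPM added), for N1, N2 and N33. Histone and cell-cycle medians are below 0 for all 3 siRNAs. Catecholamine, receptor and retinoic acid medians are below 0 for N33 and above 0 for N1. For N2 the receptor median is 0.543, while the catecholamine and retinoic acid medians are -0.405 and -0.356. The last 2 are near the N2 median of -0.456 for G2 and mitosis.

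GSK-J4, a small molecule that inhibits KDM6 enzymes, was given to BE2C cells in separate libraries of the same study at 2.5 uM for 0, 24 or 48 h, with 2 libraries a time, which share none with the siRNA experiment. Over the 17226 genes tested in both, 1552 were at least 2-fold higher with 48 h of treatment, each library against each at 0 h (9.01%), and 932 at least 2-fold lower (5.41%). Of the 639 genes higher with N33 than in all 4 other siRNA libraries, 27.9% were higher by that rule and 2.35% lower. Of the 1429 genes lower with N33, 19.2% were lower with GSK-J4 and 12.7% higher, so both shares exceeded those over all genes. These sets were not matched to all genes in level. Before restriction to genes tested in both, median siCtrl levels of protein-coding genes were 1.32 CPM (higher), 9.33 (lower) and 24.8 (all tested). Of the 834 higher genes, 236 passed the siRNA filter through N33 alone. How far the shares follow from level or filter was not tested. Gene by gene, the log2 difference at 48 h was -1.06 for MYCN, -1.66 for GACAT3, -2.92 for HIST1H1B, -2.23 for PDGFRB and -2.40 for CDH11, and 3.17 for CHAC1, 3.64 for SLC7A11 and 1.76 for ASNS, the same direction as with N33. It was -0.13 for CHGA, 0.10 for CCND1, -0.08 for STRA6, -0.16 for DBH and -0.62 for BAK1, which are close to 0 or opposite to N33. Other genes that were lower with N33 went clearly the opposite way, with 2.69 for COL6A3, 2.54 for NGFR, 2.46 for CDKN1A and 1.88 for SLC2A1. All of these genes are examples picked without a rule, and the shares above count both directions. Doses, times and controls of these experiments differ, and no test was made between them.

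Protein-coding genes higher with N33 than in all 4 others had a median length of 48.7 kb and a median siCtrl level of 1.32 CPM, those lower had 28.1 kb and 9.33 CPM, and all tested had 34.6 kb and 24.8 CPM. The siCtrl levels are in part fixed by the rule, which used them, and by the filter that 236 of the higher genes passed through N33 alone.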

How the data were processed

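BE2C cells were transfected with siRNA for 72 h. Per the labels the authors used CASAVA, STAR 2.5.3a and HTSeq on GRCh37 (hg19). The deposited values are counts of read pairs per gene symbol, not normalized, and whether strand was used is not given in the sources used here. The labels say that RNA came from xenograft tissue, whereas the samples are a cultured line.

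The 2 files of a library were summed. Between files of a library chi-square per degree of freedom was 1.5 to 1.62, against 6.07 between the siCtrl libraries. Files of the same number deviated together in every pair of libraries (correlation 0.145 to 0.191), so the numbers pair files. Summary lines of the counter were left out of library sizes. Genes were filtered with filterByExpr (minimum count of 10), scaled by TMM and tested with edgeR 4.0.16 in R 4.3.3 (N33 against the mean of N1 and N2, threshold 0.05). The code was also run on simulated counts in which N1 and N2 had equal means. Their spread was below the fitted common coefficient of variation of 0.248, so that run cannot show how many calls here are false. DESeq2 1.42.0 and limma-voom 3.58.1 were alternatives. Levels differ between genes partly through gene length, which was not corrected for. Rankings by abundance and sums of levels over a list therefore depend on length too. GRCh37 positions are from the GENCODE annotation given as reference, matched by symbol or synonym for 15346 genes.

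The comparison and the gene lists were chosen with earlier results of these data known. S and G2/M genes are those of Seurat 5.3.0. Lists of nonsense-mediated decay, snoRNA hosts, autophagy, kinesins, guidance, Wnt and RGS with DUSP genes were added after levels were seen. Named genes are the 12 lowest and 12 highest past 2-fold of all 4 others with a mean of at least 1 CPM and no clone or pseudogene name, and list members. Intervals cover counting error only, since reads are not independent molecules. Samples of other cell lines were not used. A few list members are counted in their lists but not reported here by name.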

Additional observations from a re-analysis of the deposited data

How the results depend on the processing

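Counts below are genes higher and lower with N33. Differences of at least 2-fold from N1 and N2 (1261 and 2142) numbered 2900 and 7161 without a filter beyond 1 count, 2651 and 3542 at 1.5-fold, 453 and 1060 at 3-fold, and 628 and 1163 with a mean of at least 1 CPM, a setting chosen after seeing the data. Leaving out N1 or N2 gave 2419 to 2525 higher and 2987 to 3466 lower. Differences from all 4 libraries (834 and 1632) numbered 1446 and 6370 without the filter, 1912 and 2681 at 1.5-fold, 277 and 805 at 3-fold, and 405 and 965 with the mean of 1 CPM. Leaving out either siCtrl library gave 884 to 903 higher and 1677 to 1751 lower.

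The edgeR calls (241 and 475) numbered 521 and 876 without the filter, 962 and 1527 with DESeq2, 3046 and 3273 with all 11 BE2C libraries in 1 fit, and 0 and 0 with N33, N1 and N2 alone. Leaving out 1 library gave 0 to 5433 higher and 0 to 5525 lower: 0 without either siCtrl library, and the high counts without N1 or N2, where the siCtrl pair alone set the spread. Each file as a sample gave 3733 and 4074, and with the file number as a replicate block 3478 and 3841. Files of 1 library are not separate cultures, so those p-values are too small. The block changed no direction of MYCN, whose log2 difference was -1.92 in both of these fits.

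The log2 difference of MYCN was between -1.92 and -1.80 under every alternative run. Its edgeR adjusted p passed 0.05 on the main libraries (0.0387) and missed it in the fit of N33, N1 and N2 alone (-1.91, adjusted p = 0.0743) and when 1 siCtrl library was left out (-1.90, adjusted p = 0.0695 and 0.0829). When 1 library was left out its value ranged from -1.92 to -1.90. Scaling by DESeq2 size factors, upper quartile or library totals kept every count of genes within 1.5 times, and over these scalings the median of the RNA interference list changed sign, as did that over all genes (-0.0443 to 0.0515). At these depths a gene at 0 counts could be at up to 0.0641 CPM in N33, the level of 3 counts.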

Other observations

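Lists written after the levels of the most abundant genes had been seen describe further groups, so their counts support nothing by themselves. Autophagy receptors and regulators gave 8 of 26 at least 2-fold higher with N33 than with N1 and N2 (30.8%, against 6.69% of all genes) and 0 lower, with a median log2 difference of 0.81, and 23 of 26 were above all 4 other siRNA libraries. NBR1, a cargo receptor of autophagy, was at 419.7 CPM with N33, against 202 and 155 with N1 and N2 and 164 and 159 in siCtrl. TAX1BP1, another receptor, was at 164 CPM with N33, whereas N1 and N2 gave 59.1 and 71.6 and siCtrl 70.2 and 67.8. RUBCN was at 80.7 CPM with N33, 17.6 and 26.1 with N1 and N2, and 21.9 and 25.5 in siCtrl. ULK2, a kinase that starts the process, was at 17.8 CPM with N33, against 5.19 and 5.37 with N1 and N2 and 5.39 and 5.26 in siCtrl. SQSTM1 and RB1CC1 did not pass the rule. SQSTM1 was at 150 CPM with N33, whereas N1 and N2 gave 106 and 94.2 and siCtrl 117 and 117. RB1CC1 was at 357 CPM with N33, 159.7 and 286 with N1 and N2, and 442 and 416 in siCtrl. Among nonsense-mediated decay factors 3 of 20 were higher (15%, against 6.69% of all genes) and 2 lower (10%, against 11.4%). SMG5 was at 527 CPM with N33, against 181 and 216 with N1 and N2 and 209.9 and 208 in siCtrl (edgeR adjusted p = 0.0404). SMG9 was at 64.6 CPM with N33, whereas N1 and N2 gave 15.3 and 23.5 and siCtrl 20.6 and 20.2. The decapping enzyme DCP2 was at 610.2 CPM with N33, 204 and 301 with N1 and N2, and 187 and 173 in siCtrl. UPF3B, one of the lower members, was at 9.94 CPM with N33, against 20.5 and 26.2 with N1 and N2 and 11.4 and 12.4 in siCtrl, so N33 was close to siCtrl and N1 and N2 were above it. The snoRNA host genes, whose spliced RNAs are degraded by that pathway, gave 0 of 15 in either direction, with a median of -0.48.

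In this paragraph too, counts are to be read against 11.4% lower and 6.69% higher over all genes. Axon guidance genes gave 10 of 23 lower (43.5%) and 1 higher (4.35%). SLIT3, a secreted repellent, was at 64.04 CPM with N33, whereas N1 and N2 gave 419.6 and 492 and siCtrl 341 and 388. PLXND1, a semaphorin receptor, was at 5.81 CPM with N33, 47.6 and 55.3 with N1 and N2, and 33.8 and 34.3 in siCtrl. UNC5A, a netrin receptor, was at 1.65 CPM with N33, against 37.01 and 28.2 with N1 and N2 and 17.1 and 20.2 in siCtrl. PLXNA4 was at 42.2 CPM with N33, whereas N1 and N2 gave 171 and 186 and siCtrl 133 and 150.4. SEMA3A, a secreted semaphorin, was the higher member, at 121 CPM with N33, 54.6 and 47.4 with N1 and N2, and 43.9 and 43.1 in siCtrl. ROBO1 was at 109.9 CPM with N33, against 200.1 and 227 with N1 and N2 and 109.6 and 113 in siCtrl. Of 18 kinesins 6 were lower (33.3%) and 1 higher (5.56%), with KIF20A at 28.97 CPM with N33, whereas N1 and N2 gave 128 and 197 and siCtrl 265 and 249.6. KIF3A, a motor of cilia, was at 160.3 CPM with N33, 78.5 and 67.6 with N1 and N2, and 85.3 and 84.3 in siCtrl. Wnt ligands and inhibitors gave 5 of 14 lower (35.7%) and 2 higher (14.3%), with SFRP1 at 62.8 CPM with N33, against 393 and 468 with N1 and N2 and 711 and 703 in siCtrl. RGS and DUSP genes gave 6 of 28 lower (21.4%) and 1 higher (3.57%), with RGS16 at 27.02 CPM with N33, whereas N1 and N2 gave 276 and 228 and siCtrl 191 and 186. Among the most abundant single genes that stood apart, DOK4, an adaptor of receptor kinases, was at 261 CPM with N33, 937 and 1336 with N1 and N2, and 2003 and 2006 in siCtrl. KDM5B, a demethylase of histone H3 lysine 4, was higher, at 399 CPM with N33, against 182 and 122 with N1 and N2 and 112 and 111 in siCtrl.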
